A study of Mus musculus with 28 samples.

Results

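Transcripts of the opioid and tachykinin systems were followed in midbrain and cortex of mice that carried either the human or the mouse form of the RNA-binding protein NOVA1. The members were the 10 genes with the symbols Penk, Pdyn, Pnoc, Oprm1, Oprd1, Oprk1, Oprl1, Tac1, Tacr1 and Tacr3, taken by symbol from 23038 genes in the gene tables. They comprise 4 peptide precursors and 6 receptors, and all 10 passed the filter on low counts in every comparison. Nova1 hu/hu mice were homozygous for a CRISPR/Cas9 knock-in in which a valine replaced an isoleucine of NOVA1, with silent substitutions added to the edited allele for genotyping. Nova1 wt/wt mice carried the unedited mouse allele, and both genotypes had a C57BL/6J background. Bulk polyA RNA-seq was available from midbrain at E18.5 (6 libraries per genotype), midbrain at P21 (4 per genotype) and cortex at P21 (4 per genotype), 28 libraries in all. The labels did not give the sex of the mice or say whether a library came from a single animal, so p-values measured the spread between libraries. The paper reports equal numbers of male-female pairs for its RNA-seq data, and no fit here had a term for sex.

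Opioid peptides are cut from larger precursors at pairs of basic residues. Proenkephalin (Penk) yields the enkephalins, which act on the delta receptor (Oprd1) and the mu receptor (Oprm1), prodynorphin (Pdyn) yields dynorphins for the kappa receptor (Oprk1), and prepronociceptin (Pnoc) yields nociceptin for its own receptor (Oprl1). Opioid receptors couple to inhibitory G proteins, which lower cyclic AMP and open potassium channels, and the opioid circuits of the periaqueductal gray in the midbrain are known for their control of pain. Tac1 encodes substance P and neurokinin A, Tacr1 is the receptor preferred by substance P, and Tacr3 is the receptor preferred by neurokinin B, the product of Tac2; both receptors signal mainly through Gq proteins. Neurons of the striatum that project to other nuclei are a well known source of Penk, Pdyn and Tac1 transcripts.

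The coding stretches that make these genes peptide precursors were read from the GENCODE transcripts of GRCm38 (mm10), the build named for the files, and are shown because the opioid precursors share a motif that Tac1 lacks. Capitals mark, in the opioid precursors, the codons for tyrosine (phenylalanine in Pnoc), glycine, glycine and phenylalanine, and in Tac1 the codons for the shared carboxyl end of the tachykinins. The Penk transcript held 7 copies of the motif, the Pdyn transcript held 3, and the Pnoc transcript held 1 copy of its variant. Codons for a pair of basic residues preceded each of the copies in these transcripts, and the same was found a glycine codon after each of the 2 tachykinin ends in the Tac1 transcript. The first and sixth copies of Penk (a Met-enkephalin and the Leu-enkephalin, exon 2, minus strand, chr4:4134328-4134354 and chr4:4133935-4133961), the Pdyn copies of alpha-neoendorphin, dynorphin A and dynorphin B (exon 4, minus strand, chr2:129688232-129688258, chr2:129688124-129688150 and chr2:129688067-129688093), the start of nociceptin (exon 3, minus strand, chr14:65404872-65404898), and the ends of substance P (exon 3, plus strand, chr6:7556744-7556773) and neurokinin A (exon 6, plus strand, chr6:7559110-7559139) read as follows.
Penk, Met-enkephalin: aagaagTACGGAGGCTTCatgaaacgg
Penk, Leu-enkephalin: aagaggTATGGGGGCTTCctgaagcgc
Pdyn, alpha-neoendorphin: aaacgcTATGGCGGCTTTttgcgcaaa
Pdyn, dynorphin A: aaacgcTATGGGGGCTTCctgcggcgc
Pdyn, dynorphin B: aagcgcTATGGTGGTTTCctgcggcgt
Pnoc, nociceptin: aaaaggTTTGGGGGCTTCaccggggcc
Tac1, substance P: cagcagTTCTTTGGATTAATGggcaagcgg
Tac1, neurokinin A: gattccTTTGTTGGACTAATGggcaaaaga
In RefSeq's annotation of the same build, the precursor genes (with the gene IDs of the files) are Penk (18619) at chr4:4133536-4138815, Pdyn (18610) at chr2:129686549-129699938, Pnoc (18155) at chr14:65400673-65425564 and Tac1 (21333) at chr6:7555061-7562978. The opioid receptor genes are Oprm1 (18390) at chr10:6758593-7038209, Oprd1 (18386) at chr4:132110188-132144486, Oprk1 (18387) at chr1:5588450-5606134 and Oprl1 (18389) at chr2:181715000-181720985. The tachykinin receptor genes are Tacr1 (21336) at chr6:82402003-82560104 and Tacr3 (21338) at chr3:134829007-134934581. The gene counts summed all reads of a gene, so they gave the amount of precursor transcript and not the amount of any 1 peptide.

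The libraries held between about 18600000 and 45100000 counted reads each. Levels are given as TPM, computed from the counts and the exon lengths in the files, which puts genes of different length on 1 scale. The summed TPM of 6 cortical marker genes (Tbr1, Neurod6, Emx1, Slc17a7, Cux2 and Fezf2) was 1908 to 2114 in the cortex libraries, 177 to 208 in P21 midbrain and 57.9 to 68.8 in E18.5 midbrain. That of 9 markers of dopamine and serotonin neurons and tectum (Th, Slc6a3, Pitx3, En1, En2, Tph2, Fev, Slc6a4 and Pax7) was 226 to 273 in P21 midbrain, 121 to 149 in E18.5 midbrain and 12.1 to 23.5 in cortex. Markers of neighbouring regions were also present. The 6 striatal markers (Drd1, Drd2, Adora2a, Rgs9, Ppp1r1b and Rxrg) summed to 648 to 815 TPM in the cortex libraries, against 78.3 to 92.1 in P21 midbrain and 54.7 to 66.6 in E18.5 midbrain. The 8 hypothalamic markers (Avp, Oxt, Pmch, Hcrt, Agrp, Pomc, Nr5a1 and Ghrh) summed to 352 to 443 TPM in P21 midbrain, 60.8 to 136 in E18.5 midbrain and 8.65 to 38.2 in cortex, and the 5 thalamic markers (Prkcd, Tnnt1, Plekhg1, Lef1 and Rgs16) to 335 to 415, 46.5 to 63.1 and 43.3 to 49.5. In cortex, P21 midbrain and E18.5 midbrain, in that order, habenula markers summed to 14.3 to 17.3, 42.4 to 48.7 and 79.4 to 93.6 TPM, cortical interneuron markers to 1701 to 1857, 969.9 to 1077 and 502 to 564 TPM, and cerebellar markers to 130.3 to 148, 86.8 to 112 and 59.8 to 95.9 TPM. Calb1 made up most of the cerebellar sums, with means of 134, 88.5 and 67.6 TPM in the same order of tissues. In the cortex libraries, Slc17a7 (mean 1764 TPM) made up most of the cortical sums and Ppp1r1b (mean 546 TPM) most of the striatal sums. In P21 midbrain the means of Slc17a7 and Ppp1r1b were 140 and 36.2 TPM. By the edgeR test described below, 3 of the 5 cerebellar markers were higher in P21 midbrain than in cortex and 1 was lower. By the same test with age in midbrain, 2 of 5 tested cortical markers were higher at P21 and 3 lower. The 9 dopamine, serotonin and tectum markers split into 4 higher and 4 lower with age. No marker gene of any list was at 0 in all libraries of a tissue. In bulk tissue, fewer cells of a type and less RNA per cell cannot be told apart.

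Penk had the highest mean level of all members in both P21 tissues. In P21 cortex it was at 304, 341, 327 and 329 TPM in the Nova1 hu/hu libraries and at 298, 336, 308 and 329 TPM in the Nova1 wt/wt libraries. In P21 midbrain the corresponding values were 93.8, 93.4, 87.6 and 99.3 TPM and 103, 98.1, 78.7 and 97.1 TPM. In E18.5 midbrain its lowest, median and highest values over 12 libraries were 31.1, 42.2 and 47.9 TPM. The 3 tissues thus formed separate ranges, with cortex highest and E18.5 midbrain lowest, and the mean was 8.12 times higher in P21 cortex than in E18.5 midbrain. The cortex libraries with the 2 lowest Penk values (replicate 1 of each genotype) had the 2 lowest striatal marker sums, 648 and 687 TPM. Those with the 2 highest Penk values (replicate 2 of each) had the 2 highest sums, 796 and 815 TPM. This match was picked after seeing the data. Tac1 in cortex was also lower in replicate 1 (127 TPM in Nova1 hu/hu and 144 in Nova1 wt/wt) than in replicate 2 (145 and 151). Its lowest Nova1 wt/wt value (135 TPM) was in replicate 4, whose striatal marker sum was 788 TPM. Pdyn was instead higher in replicate 1 (46.5 and 49.6 TPM) than in replicate 2 (44.1 and 44.3). The part of striatal tissue in the cortex level was not tested.

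Pdyn, the dynorphin precursor, was lower in level and had another order of tissues. It was at 46.5, 44.1, 50.6 and 42.2 TPM in Nova1 hu/hu cortex and at 49.6, 44.3, 51.1 and 43.8 TPM in Nova1 wt/wt cortex. In P21 midbrain it was at 11.3, 13.4, 19.9 and 11.03 TPM and at 11.2, 14.5, 14.4 and 12.6 TPM, respectively. In E18.5 midbrain it ranged from 17.2 through a median of 21.3 to 27.1 TPM. Cortex stood above both midbrain stages without overlap, whereas the midbrain stages overlapped because of Nova1 hu/hu replicate 3 of P21 midbrain (19.9 TPM), the library with the highest hypothalamic marker sum (443 TPM); the part of hypothalamic tissue in that value was not tested. In cortex, replicates 1 and 3 of both genotypes (46.5 to 51.1 TPM) were above replicates 2 and 4 of both (42.2 to 44.3 TPM). The exon length in the files was 961 bases for Pdyn, against 2386 bases in the GENCODE transcript of Pdyn, so its level relative to other genes depends on the transcript model. Which reads that model counted in each tissue was not examined, so its part in the differences between tissues was not tested.

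Tac1 resembled Penk in its order of tissues but spanned a smaller range. Cortex libraries held 127, 145, 153 and 148 TPM (Nova1 hu/hu) and 144, 151, 148 and 135 TPM (Nova1 wt/wt). Midbrain at P21 held 76.0, 67.3, 78.4 and 74.2 TPM and 85.5, 82.4, 81.0 and 77.8 TPM. At E18.5 the lowest, median and highest midbrain values were 62.0, 76.7 and 91.2 TPM. All cortex values were above all midbrain values, and the midbrain stages overlapped, with means of 77.8 ± 5.59 TPM (SD, n = 8) at P21 and 77.6 ± 9.96 TPM (SD, n = 12) at E18.5. Pnoc, in contrast, was lowest in cortex (13.3 ± 0.911 TPM, SD, n = 8; range 12.2 to 15.0), with 22.5 ± 1.12 TPM in P21 midbrain (SD, n = 8; range 20.8 to 24.3) and 26.9 ± 2.13 TPM in E18.5 midbrain (SD, n = 12; range 23.1 to 31.4). Its cortex range did not overlap the midbrain ranges, which overlapped each other.

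**Figure D1:**
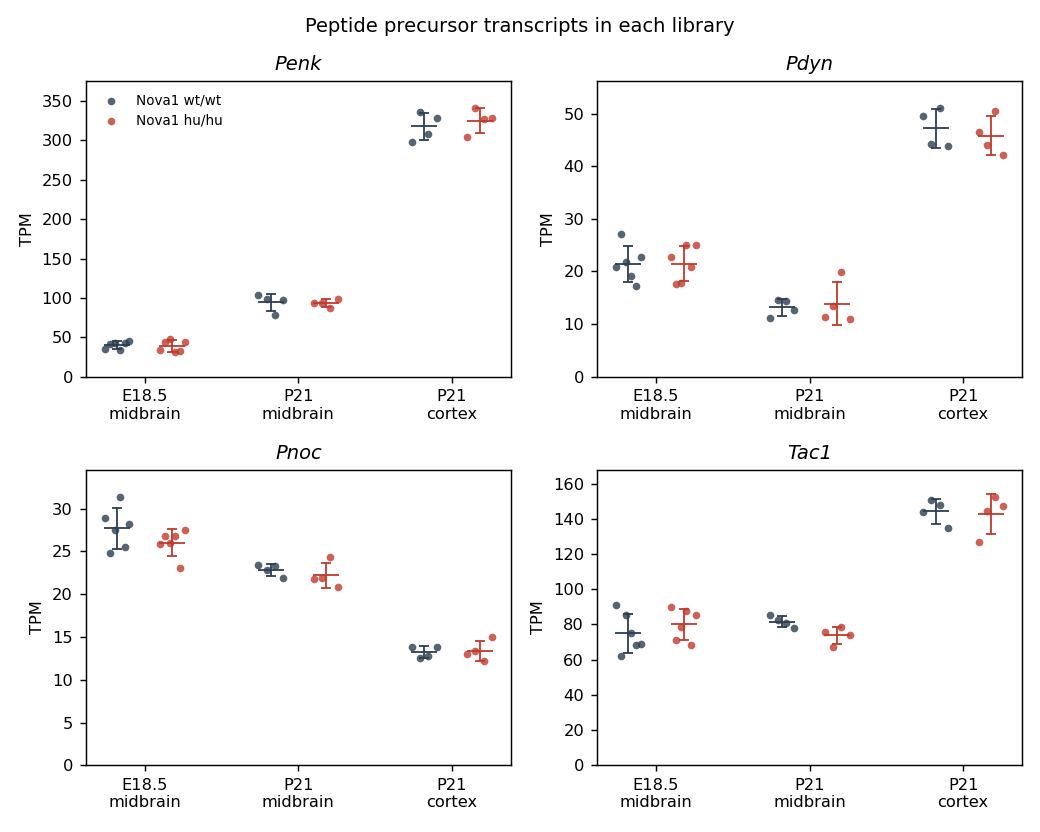
TPM (y axis, linear from 0) of the 4 peptide precursors in every library, by tissue (x axis) and genotype (dark, Nova1 wt/wt; red, Nova1 hu/hu). Points are libraries, and horizontal marks with bars are the mean and SD. Penk, Pdyn and Tac1 were highest in P21 cortex and Pnoc was lowest there, and the genotypes lay side by side in each tissue.

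Among the receptors, Oprl1 was by far the most abundant in each tissue. It was at 73.0, 79.9 and 98.2 TPM (lowest, median and highest of 12) in E18.5 midbrain, at 53.8, 58.5 and 62.3 TPM (of 8) in P21 midbrain and at 31.1, 34.2 and 36.1 TPM (of 8) in P21 cortex. The 3 ranges did not overlap, and the order ran opposite to that of Penk. Oprd1 followed the order of Penk, with 1.42 ± 0.151 TPM in E18.5 midbrain (SD, n = 12; range 1.16 to 1.62), 4.69 ± 0.488 TPM in P21 midbrain (SD, n = 8; range 3.82 to 5.18) and 7.61 ± 0.933 TPM in P21 cortex (SD, n = 8; range 6.90 to 9.22), again without overlap. The lower values of these receptors rested on few reads, such as 31 to 72 counted reads per library for Oprd1 in E18.5 midbrain.

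Oprm1 was the least abundant member in both P21 tissues. It had 1.93 ± 0.293 TPM in E18.5 midbrain (SD, n = 12), 3.01 ± 0.489 TPM in P21 midbrain (SD, n = 8) and 1.56 ± 0.232 TPM in P21 cortex (SD, n = 8), from 32 to 171 counted reads per library. P21 midbrain, at 2.31 to 3.75 TPM, stood above the other tissues, which overlapped at 1.45 to 2.28 and 1.09 to 1.77 TPM. Oprk1 had similar levels in the 3 tissues, with means of 4.39 ± 0.510, 4.59 ± 0.596 and 4.82 ± 0.456 TPM (SD, n = 12, 8 and 8) and ranges that all overlapped.

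Both tachykinin receptors had their highest mean in P21 midbrain and their lowest in cortex. Tacr1 was at 6.33 to 7.63 TPM in P21 midbrain, 4.68 to 6.24 TPM in E18.5 midbrain and 3.29 to 4.08 TPM in P21 cortex, 3 ranges without overlap. Tacr3 was at 8.79, 7.09, 7.32 and 7.69 TPM in Nova1 hu/hu P21 midbrain and at 6.20, 6.77, 9.09 and 7.23 TPM in Nova1 wt/wt P21 midbrain. In E18.5 midbrain it was at 4.43 to 7.35 TPM, which overlapped P21 midbrain. In cortex it was at 2.39, 2.42, 2.80 and 2.12 TPM and at 2.32, 2.01, 2.37 and 2.88 TPM, so that every midbrain library lay well above every cortex library.

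**Figure D2:**
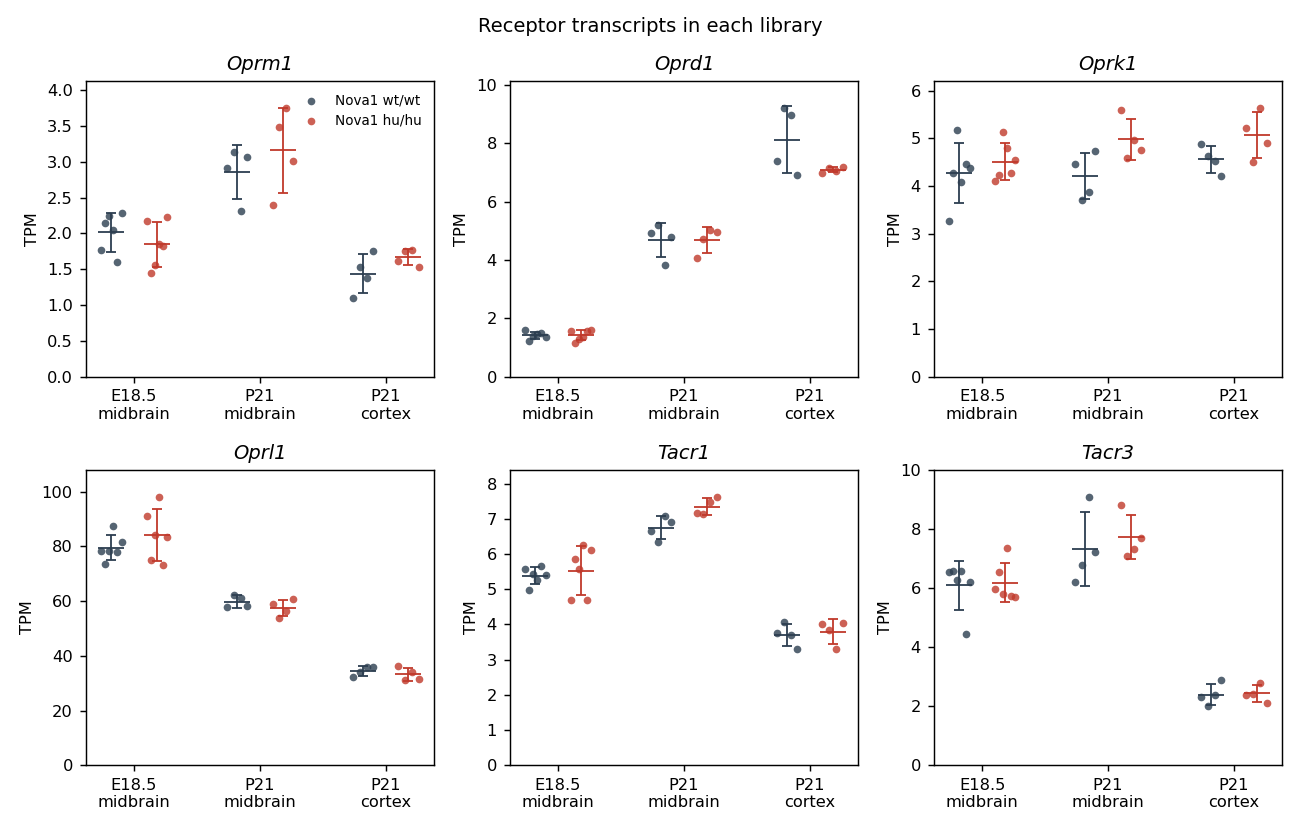
TPM (y axis, linear from 0) of the 6 receptors in every library, by tissue (x axis) and genotype (dark, Nova1 wt/wt; red, Nova1 hu/hu), with mean and SD. Oprl1 ran down from E18.5 midbrain through P21 midbrain to P21 cortex, and Oprd1 ran the other way. Oprm1, Tacr1 and Tacr3 had their highest mean in P21 midbrain, where Tacr3 overlapped E18.5 midbrain, and Oprk1 overlapped across tissues.

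Within each tissue the members kept a wide order of levels. From the highest mean TPM down, E18.5 midbrain ran Oprl1, Tac1, Penk, Pnoc, Pdyn, Tacr3, Tacr1, Oprk1, Oprm1 and Oprd1, and neighbours in that order overlapped except between Tac1 and Penk, Pdyn and Tacr3, and Oprk1 and Oprm1. P21 midbrain ran Penk, Tac1, Oprl1, Pnoc, Pdyn, Tacr3, Tacr1, Oprd1, Oprk1 and Oprm1, with overlap between Penk and Tac1, Tacr3 and Tacr1, Oprd1 and Oprk1, and Oprk1 and Oprm1. P21 cortex ran Penk, Tac1, Pdyn, Oprl1, Pnoc, Oprd1, Oprk1, Tacr1, Tacr3 and Oprm1, and no neighbours overlapped.

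To ask how the mix of precursors and receptors differed, each library's TPM were turned into shares. The size of the Penk share, and of its differences, depends on the exon length used for Pdyn. Penk made up 44.9% ± 4.57 (SD, n = 12) of the summed opioid precursors (Penk, Pdyn and Pnoc) in E18.5 midbrain, 72.2% ± 3.36 (SD, n = 8) in P21 midbrain and 84.3% ± 1.24 (SD, n = 8) in P21 cortex. The share was 27.3 percentage points higher at P21 than at E18.5 in midbrain (two-sided exact permutation test over libraries, p = 7.94e-06, the smallest it allows; 5.95e-05 after Benjamini-Hochberg adjustment over 15 tests) and 12.1 points higher in cortex than in midbrain at P21 (exact permutation p = 0.000155, the smallest it allows; adjusted p = 0.000466). Oprl1 made up 91.3% ± 0.779 (SD, n = 12) of the summed opioid receptors in E18.5 midbrain, 82.6% ± 1.74 (SD, n = 8) in P21 midbrain and 70.8% ± 1.51 (SD, n = 8) in P21 cortex. This share dropped by 8.67 points with age in midbrain and was 11.9 points higher in midbrain than in cortex, with the same exact permutation p-values as for Penk (7.94e-06 and 0.000155). Tacr3 made up 51.5% ± 2.78 (SD, n = 8) of Tacr1 and Tacr3 in P21 midbrain and 39.2% ± 4.89 (SD, n = 8) in P21 cortex, a difference of 12.3 points (exact permutation p = 0.000155, adjusted p = 0.000466). In E18.5 midbrain it was 52.8% ± 3.65 (SD, n = 12), and the difference between ages in midbrain did not pass the test (exact permutation p = 0.387, adjusted p = 0.83). None of the 9 genotype comparisons of a share passed, with exact permutation p from 0.171 to 1; the smallest that 4 against 4 libraries allow is 0.0286.

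Between regions at P21, 9 of 10 members were called (edgeR quasi-likelihood test with genotype as a covariate, p under 0.05 and Benjamini-Hochberg adjusted p under 0.1), against 75.6% of the 16345 genes tested. The same 9 members did not overlap between the regions in TPM, as held for 47.3% of genes. With so many genes called, the count says little about the members, and their directions and sizes follow. Members higher in midbrain numbered 5 (37.9% of genes were) and members lower in midbrain numbered 4 (37.7% of genes were); the median log2 fold change was 0.27 over the members and 0.00063 over all genes. Penk was 3.61-fold lower in midbrain (log2 fold change -1.85, SE 0.042, adjusted p = 8.43e-22) and Pdyn was 3.62-fold lower (-1.85, SE 0.099, adjusted p = 1.99e-14). Tac1 was 1.95-fold lower (-0.96, SE 0.044, adjusted p = 8.07e-16) and Oprd1 1.71-fold lower (-0.77, SE 0.080, adjusted p = 5.12e-09). These 4 genes stood beside striatal markers, of which 6 of 6 tested were also lower in midbrain, with a median log2 fold change of -3.09; their part in the differences was not tested.

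On the midbrain side, Tacr3 showed the largest difference among the members, at 2.95-fold (log2 fold change 1.56, SE 0.091, adjusted p = 1.10e-13). Oprm1 was 1.84-fold higher (0.88, SE 0.12), Tacr1 1.78-fold (0.83, SE 0.061), Oprl1 1.64-fold (0.71, SE 0.040) and Pnoc 1.60-fold (0.68, SE 0.053), with adjusted p of at most 3.41e-07. Oprk1 had a log2 fold change of -0.15 (SE 0.072, 95% interval -0.29 to 0.0029) and was not called, since its unadjusted p was above 0.05 (adjusted p = 0.0714 by edgeR). The midbrain side also carried the higher hypothalamic and thalamic marker sums given above (8 of 8 and 5 of 5 markers higher), whose part was not tested. Members that were lower in midbrain than in cortex were thus 3 of the 4 precursors and the delta receptor, and the members that were higher were Pnoc and 4 of the 6 receptors.

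Between ages in midbrain, 9 of 10 members were called, against 85.6% of 16330 genes tested (42.4% higher and 43.3% lower at P21), and 5 members did not overlap in TPM, against 60.1% of genes. Age cannot be told apart here from library preparation or sequencing runs where these went with age. Markers of neighbouring regions differed between the ages as well. Of 8 hypothalamic markers, 7 were called as higher at P21 and 0 as lower. Of 5 thalamic markers, 4 were higher and 1 was lower, and of 5 habenula markers, 1 was higher and 3 were lower. The part of these tissues in the members' age differences was not tested. The scaling mattered for this comparison. With TMM factors the median gene had a log2 fold change of -0.015, but on the TPM scale it had -0.21, and members are described relative to the median of all genes, that is, on the TMM scale. Oprd1 rose 3.77-fold from E18.5 to P21 (log2 fold change 1.92, SE 0.086, adjusted p = 4.51e-17) and Penk rose 2.73-fold (1.45, SE 0.069, adjusted p = 1.64e-16). Oprm1 rose 1.79-fold (0.84, SE 0.11), Tacr1 1.48-fold (0.57, SE 0.060) and Tacr3 1.41-fold (0.50, SE 0.082), with adjusted p of at most 4.10e-06.

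Pdyn and Oprl1 fell with age, and both calls held on every scale. Pdyn dropped 1.38-fold (log2 fold change -0.46, SE 0.11, adjusted p = 0.000535) and Oprl1 dropped 1.21-fold (-0.28, SE 0.055, adjusted p = 4.53e-05). The smaller differences of 3 members depended on the scale. Tac1 (0.20, SE 0.073, adjusted p = 0.0126) and Oprk1 (0.26, SE 0.075, adjusted p = 0.00222) were called as higher at P21 with TMM factors, but had adjusted p of 0.536 (Tac1) and 0.187 (Oprk1) with scaling by library totals and of 0.871 (Tac1) and 0.483 (Oprk1) on the TPM scale. Pnoc had -0.05 (SE 0.056, adjusted p = 0.383) with TMM factors and was called as lower at P21 with library totals (-0.21, adjusted p = 0.00138) and on the TPM scale (-0.25, adjusted p = 2.80e-05). The count of members called was 8 under both of these scalings, with 5 higher and 3 lower at P21 in place of 7 and 2.

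**Figure D3:**
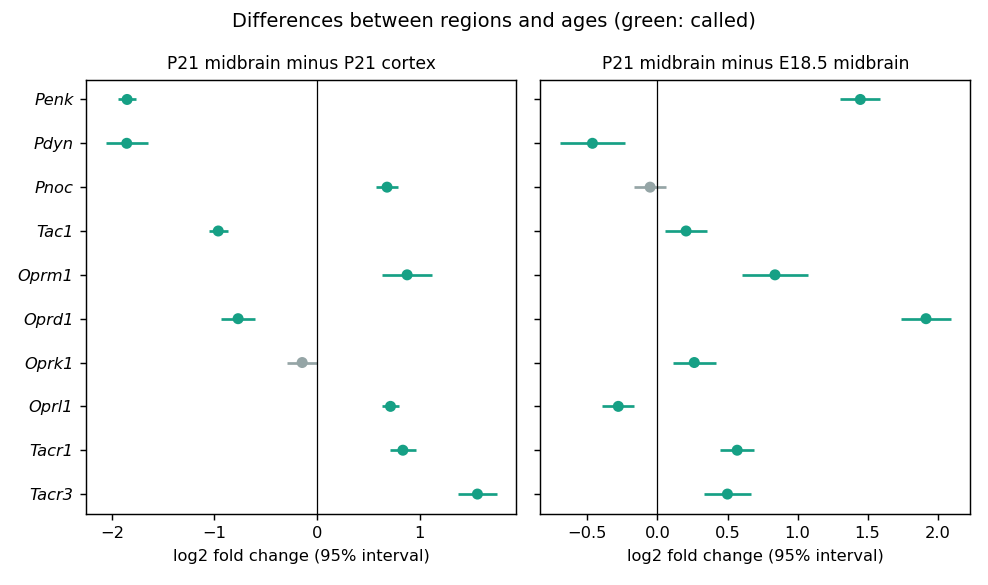
Log2 fold change with 95% interval (x axis) of each member (y axis) between regions (left) and ages (right), edgeR with TMM factors; green marks called members and grey those not called. Penk, Pdyn, Tac1 and Oprd1 lay left of 0 for region; for age, Oprd1 and Penk lay farthest to the right, and Tac1 and Oprk1 lost their calls, while Pnoc gained one, on the TPM scale.

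Within E18.5 midbrain, Penk varied together with transcripts of the choroid plexus, the tissue that makes cerebrospinal fluid. The 5 libraries with the lowest Penk (31.1 to 34.7 TPM; Nova1 hu/hu replicates 1, 4 and 5 and Nova1 wt/wt replicates 1 and 4) were also the 5 with the lowest summed TPM of Ttr, Folr1, Clic6 and Kl, at 43.9 to 1610.1 TPM. The other 7 libraries had 41.7 to 47.9 TPM of Penk and 2310.3 to 3655 TPM of these markers. This match was picked after seeing the data, and other members also differed in the 5 libraries. In the order named, Oprl1 was there at 91.3, 98.2, 73.0, 78.2 and 87.6 TPM (median of all 12, 79.9 TPM). Tac1 was there at 89.7, 87.6, 68.5, 91.2 and 74.9 TPM (median of all 12, 76.7 TPM). In P21 midbrain the marker sum ran from 12.05 to 3035 TPM, and the library with the lowest Penk (78.7 TPM, Nova1 wt/wt replicate 3) had 1387 TPM of markers, whereas Nova1 wt/wt replicate 2, with 44.6 TPM of markers, had 98.1 TPM of Penk. None of the 4 markers was at 0 in all libraries of a tissue. What the carried choroid plexus adds to Penk at E18.5 was not tested.

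**Figure D4:**
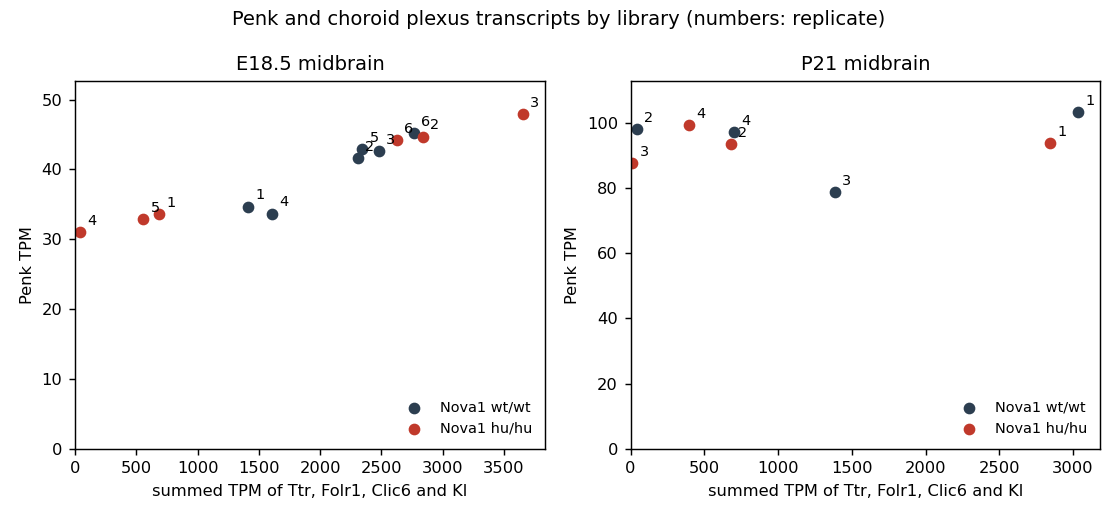
Penk TPM (y axis) against the summed TPM of 4 choroid plexus markers (x axis) in each E18.5 (left) and P21 (right) midbrain library, numbered by replicate (dark, Nova1 wt/wt; red, Nova1 hu/hu); both axes are linear. At E18.5 the 5 lowest libraries on both axes were the same; at P21 the lowest Penk value was in the middle of the marker range.

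The study asked whether the human form of NOVA1 changed gene expression. For the opioid and tachykinin genes no difference between genotypes was called. In E18.5 midbrain 0 of 10 members and 0 (0%) of 15540 genes were called by edgeR, and 0 of 10 members and 1.29% of genes had an unadjusted p under 0.05. In P21 midbrain 0 of 10 members and 0 (0%) of 15972 genes were called, and 2 members and 426 genes (2.67%) had an unadjusted p under 0.05; a fit blocked on the replicate number called 0 members and 4 genes. In P21 cortex 0 of 10 members and 0 (0%) of 15767 genes were called, and 0 members and 450 genes (2.85%) had an unadjusted p under 0.05. DESeq2 likewise called 0 genes in each tissue. With edgeR and the same thresholds, the paper reports a single gene, which is not a member, as different in P21 midbrain. It also reports differences in alternative splicing, which were not examined here. The members' log2 fold changes lay between -0.12 and 0.09 in E18.5 midbrain (median 0.014, against -0.00062 over all genes), between -0.14 and 0.25 in P21 midbrain (median 0.040, against -0.0001) and between -0.19 and 0.22 in P21 cortex (median 0.021, against -0.00071).

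The 2 members with an unadjusted p under 0.05 were Tac1 and Oprk1, both in P21 midbrain. The Tac1 values given above were 67.3 to 78.4 TPM in Nova1 hu/hu and 77.8 to 85.5 TPM in Nova1 wt/wt, with an overlap of a single library on each side, and the log2 fold change was -0.14 (SE 0.061, 95% interval -0.27 to -0.0089, adjusted p = 0.99996 by edgeR). Oprk1 was at 5.60, 4.60, 4.98 and 4.76 TPM in Nova1 hu/hu and at 4.47, 3.72, 3.88 and 4.74 TPM in Nova1 wt/wt. Its log2 fold change was 0.25 (SE 0.11, 95% interval 0.019 to 0.47, adjusted p = 0.99996 by edgeR), and its values overlapped as well. Within the 4 pairs of libraries that shared a replicate number, Tac1 was lower in Nova1 hu/hu in 4 and Oprk1 was higher in 4. Both genes were picked by p-values from the same libraries, so the pair directions are no separate evidence. Here and in the next paragraph, the share of all genes with 1 direction in all pairs was not computed. With the replicate number as a block, 4 genes were called in this tissue but neither Tac1 nor Oprk1 (adjusted p = 0.9992 for both by edgeR). The unadjusted p of Oprk1 was above 0.05 with scaling by library totals and on the TPM scale, and that of Tac1 was above 0.05 when all 28 libraries entered the fit. Striatal marker sums in these libraries were 83.1, 81.9, 85.2 and 78.3 TPM in Nova1 hu/hu and 92.1, 87.2, 85.8 and 88.9 TPM in Nova1 wt/wt, so that every Nova1 hu/hu library was below every Nova1 wt/wt library. Of the 5 cerebellar markers, 3 had an unadjusted p under 0.05 in this tissue, with a median log2 fold change of -0.51 over the list. Sums of the cortical markers were separate too, at 177 to 190.1 TPM in Nova1 hu/hu and 192 to 208 TPM in Nova1 wt/wt, and 1 of the 4 tested, Slc17a7, had an unadjusted p under 0.05 (log2 fold change -0.14, median of the list -0.15). The part of these 3 lists in the Tac1, Oprk1 and Tacr1 values was not tested.

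Tacr1 was the only member whose TPM did not overlap between genotypes in any tissue. In P21 midbrain it was at 7.17, 7.12, 7.47 and 7.63 TPM in Nova1 hu/hu and at 6.65, 6.33, 7.07 and 6.92 TPM in Nova1 wt/wt. Its log2 fold change there was 0.13 (SE 0.077, 95% interval -0.04 to 0.29, adjusted p = 0.99996 by edgeR), and 1.92% of genes did not overlap in this tissue. It was higher in Nova1 hu/hu in all 4 pairs. In E18.5 midbrain and P21 cortex 0 members were free of overlap, against 0.0515% and 2.02% of genes, and the only member with 1 direction in all pairs there was Pdyn in cortex, lower in Nova1 hu/hu in 4 of 4 (log2 fold change -0.04).

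The intervals show which genotype differences these libraries could have missed. They came from the main fits, which had no term for the replicate number. For Penk, the 95% interval of the log2 fold change was -0.06 to 0.14 in P21 cortex, while P21 midbrain gave -0.15 to 0.14 and E18.5 midbrain -0.27 to 0.18. For Oprm1, a low transcript, the same 3 tissues gave -0.16 to 0.60, -0.19 to 0.50 and -0.47 to 0.22. The genotype differences of the mu receptor were thus bounded less closely than those of Penk. The genotype difference was also compared between regions and ages. The interaction of region and genotype called 0 of 10 members and 0 (0%) of 16345 genes, and that of age and genotype called 0 of 10 members and 0 (0%) of 16330 genes; at an unadjusted p under 0.05 there were 0 members in both and 373 and 303 genes, and DESeq2 called 0 genes in both.

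**Figure D5:**
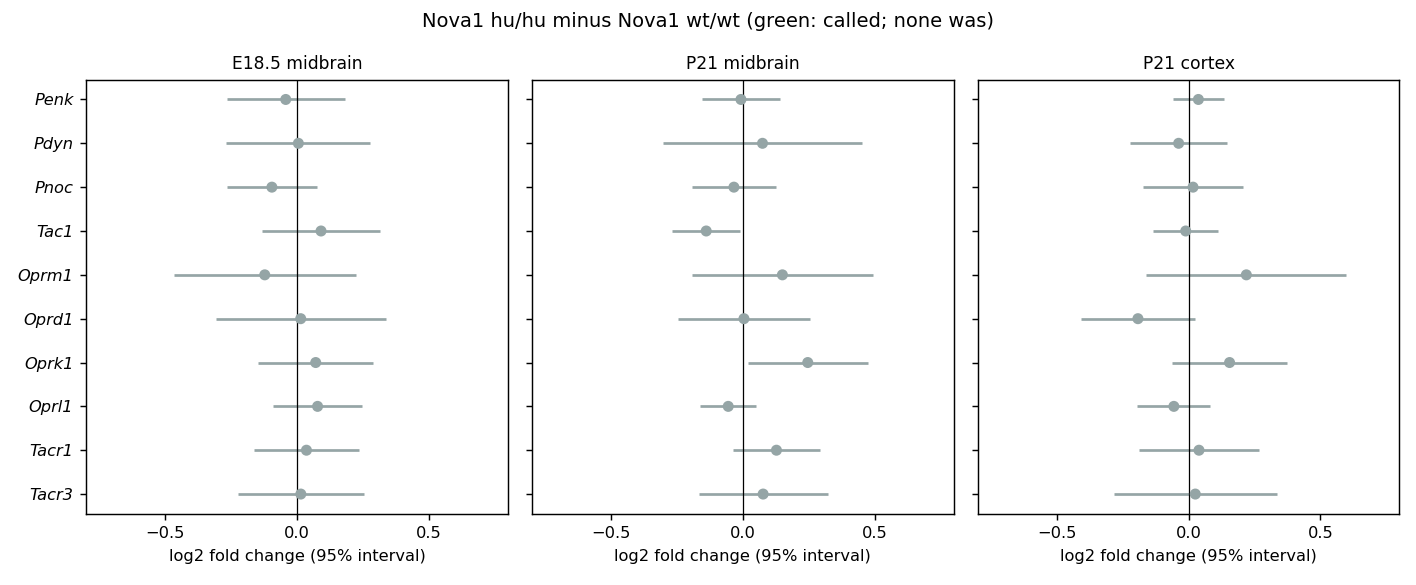
Log2 fold change, Nova1 hu/hu minus Nova1 wt/wt, with 95% interval (x axis) for each member (y axis) in the 3 tissues, edgeR with TMM factors; all points are grey because none was called. The intervals of Tac1 and Oprk1 in P21 midbrain are the only ones that leave out 0.

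The other ligands and receptors of these families were low, apart from Tac2. Tac2, the neurokinin B precursor whose peptide acts on Tacr3, was at 3.42, 4.91 and 9.34 TPM (lowest, median and highest of 12) in E18.5 midbrain, at 41.7, 49.4 and 58.8 TPM in P21 midbrain and at 40.2, 42.4 and 54.1 TPM in P21 cortex. It rose with age in midbrain (log2 fold change 3.34, SE 0.13, adjusted p = 2.51e-18), far beyond its receptor Tacr3 (0.50), and was not called between regions (log2 fold change 0.09). Pomc, the precursor of beta-endorphin and one of the hypothalamic markers, was at 6.48 ± 1.69 TPM in P21 midbrain (SD, n = 8), 3.10 ± 0.931 TPM in E18.5 midbrain (SD, n = 12) and 2.60 ± 0.650 TPM in cortex (SD, n = 8), and was called as higher in P21 midbrain in both comparisons (log2 fold changes 1.25 and 1.25). Tac4 and Tacr2 had mean TPM of at most 0.133 and 0.193 in any tissue and were not tested between regions or ages.

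Of 8 genes for enzymes and partners that cut and finish peptide precursors, 8 were called as higher in midbrain at P21 than at E18.5 under each of the 4 scalings, against 42.4% of all genes with TMM factors. Their median log2 fold change was 1.48 (1.28 on the TPM scale), against -0.015 (-0.21) over all genes. Among them were the convertases Pcsk1 (1.62, SE 0.080) and Pcsk2 (1.53, SE 0.038) and the convertase inhibitor precursor Pcsk1n (1.59, SE 0.12). Between regions the counts were near the shares of all genes (37.9% higher and 37.7% lower). Of the 8, 3 were called as higher in midbrain, Cpd (0.56, SE 0.044), Ctsl (0.51, SE 0.032) and Pcsk1n (0.39, SE 0.099), and 3 as lower, Pcsk2 (-0.62, SE 0.032), Cpe (-0.36, SE 0.028) and Scg5 (-0.12, SE 0.024). Pcsk2, which cuts proenkephalin and prodynorphin, was on the same side as Penk and Pdyn in the region comparison. The other convertase, Pcsk1, was not called there, and the list as a whole was split between the sides.

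Of 10 peptidases that break neuropeptides down, 5 were called as higher and 4 as lower at P21 in midbrain with TMM factors (3 and 4 on the TPM scale), close to the 42.4% and 43.3% of all genes. The differences ran from Ece2 (0.64, SE 0.077), Ece1 (0.50, SE 0.057) and the enkephalin- and substance P-cleaving neprilysin gene Mme (0.49, SE 0.069) on the higher side to Npepps (-0.25, SE 0.038), Anpep (-0.78, SE 0.10) and Prep (-1.01, SE 0.035) on the lower. Between regions 6 were called as higher in midbrain (37.9% of all genes were), led by Ece2 (1.22, SE 0.037), Ace (0.84, SE 0.083) and Enpep (0.73, SE 0.12), and 2 as lower (37.7% of all genes were), Thop1 (-0.37, SE 0.043) and Ece1 (-0.09, SE 0.039), the latter of which lost its call on the TPM scale.

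Of 22 transducers of these receptors, 16 were called as lower in midbrain than in cortex and 5 as higher, against 37.7% and 37.9% of all genes, with a median log2 fold change of -0.44 (0.00063 over all genes). The lowest were Rgs9, a regulator of G-protein signalling that is also a striatal marker (-2.12, SE 0.038), the adenylyl cyclase gene Adcy1 (-1.61, SE 0.030) and Rgs4 (-1.27, SE 0.034), and the highest were the potassium channel gene Kcnj5 (2.02, SE 0.14), Gprasp1 (0.89, SE 0.028) and Rgs10 (0.32, SE 0.044). With age in midbrain 11 were called as higher and 8 as lower with TMM factors (8 and 10 on the TPM scale), near the 42.4% and 43.3% of all genes. The potassium channel genes Kcnj9 (2.94, SE 0.060) and Kcnj3 (1.26, SE 0.056) and Rgs4 (1.80, SE 0.036) were highest, and the G-protein genes Gnai3 (-1.41, SE 0.052) and Gnaq (-0.79, SE 0.031) and Rgs9 (-1.29, SE 0.048) were lowest. Between genotypes, 0 genes of these 4 lists were called in any tissue by edgeR. At an unadjusted p under 0.05 there were 1 in E18.5 midbrain (Pcsk1n), 0 in P21 midbrain and 3 in P21 cortex (Pcsk1n, Dpp3 and Rgs10), and DESeq2 called 0 of all genes.

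The genes whose library-to-library pattern was most like that of a precursor were sought as the highest Pearson r over 28 libraries of log2 CPM (library-scaled counts), after subtraction of each group's mean, among 15044 genes. The points share libraries and depth, so the values are descriptions. Penk was most like 4930562F07Rik (0.845), Ank (0.823) and Ccdc9 (0.773). Pdyn was most like Zfp248 (0.737), Pcp4 (0.682) and Kif3c (0.671), Pnoc was most like Ap2s1 (0.784), Pcdhb20 (0.778) and Bex1 (0.775), and Tac1 was most like 1500031L02Rik (0.849), Gosr2 (0.828) and Zwint (0.792). No other member was among the 3 nearest genes of any precursor.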

How the data were processed

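RNA was taken from dissected midbrain and cortex, polyA-selected and sequenced by the study. According to the methods and labels, the authors aligned reads to mm10 with OLego 1.1.7 and summarised them per gene with Quantas 1.0.9. The annotation version and use of strand are not given in the sources used here. The authors deposited per gene an estimated count of reads (estimated counts, not whole for up to 11.8% of values in a library), an exon length and an RPKM value. RPKM as deposited by the authors was not used. Counts were rounded and tested with edgeR 4.0.16 (R 4.3.3; filterByExpr, TMM, quasi-likelihood; called at p under 0.05 and Benjamini-Hochberg adjusted p under 0.1). TPM was computed from the deposited counts and lengths. Genotypes were compared within each tissue, and regions and ages with genotype as a covariate and with interaction terms. DESeq2 1.42.0, RLE factors, other count filters, all libraries in 1 fit, replicate blocks and leaving out each library were alternatives. Scaling by library totals and limma 3.58.1 on log2(TPM + 0.1) were added after seeing the data. Scripts were tested on simulated data. Deviations of libraries with the same replicate number in both genotypes of a tissue correlated in P21 cortex at 0.251 to 0.310, in P21 midbrain at 0.266 to 0.301 and at E18.5 at 0.256 to 0.497, so the numbers were taken to pair the samples between genotypes. Only the replicate blocks used this pairing, and the main genotype tests, their intervals and the permutation tests of shares did not. The depth was about 18600000 to 45100000 counted reads per library. The members and gene lists (other ligands and receptors, peptide maturation, peptide breakdown, receptor transducers, and markers of cortex, midbrain, striatum, hypothalamus, thalamus, habenula, cerebellum, choroid plexus and cortical interneurons) were chosen with earlier results of these data known. Some marker genes of these lists are not reported here and were left out of their sums and counts. By rule, all members were named, with the 3 highest and 3 lowest called genes of each pathway list per comparison and the 3 nearest genes of each precursor.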

Additional observations from a re-analysis of the deposited data

Results flagged for a closer look

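Among 78 groups of 4 to 6 libraries examined for a single library that stood apart (Dixon's test at 95%), 5 held such a library, where chance gives about 1 in 20. In E18.5 midbrain, Pnoc was at 23.1 TPM in Nova1 hu/hu replicate 5, against 25.9 to 27.5 TPM in the others of its group. Tacr3 was at 4.43 TPM in Nova1 wt/wt replicate 5, against 6.19 to 6.58 TPM in the others, and its share of the tachykinin receptors in that library was 43.9%, against 53.4% to 57.0%. In P21 midbrain, the Tacr3 share was 55.1% in Nova1 hu/hu replicate 1, against 49.5% to 50.2%. In P21 cortex, the Oprl1 share of the opioid receptors was 72.3% in Nova1 hu/hu replicate 1, against 69.9% to 70.2%.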

How the results depend on the processing

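Counts of members called stayed within 1.5 times the main count in all 100 fits that left out 1 library and under all 63 other settings. The region comparison called 10 members with the replicate block, which added Oprk1 (adjusted p = 0.0636), although libraries with the same number did not deviate together between regions (correlations -0.218 to -0.119). With the replicate block 4 genes and 0 members were called between genotypes in P21 midbrain, and the block changed no other call of a member. Scaling by library totals and the TPM scale removed the age calls of Tac1 (log2 0.050 and 0.012) and Oprk1 (0.11 and 0.062) and added that of Pnoc (-0.21 and -0.25); the cause was not tested. Differences near 0 changed sign: Pdyn between genotypes at E18.5 with the replicate block (-0.0028), Oprd1 between genotypes in P21 midbrain with library totals (-0.020), Oprl1 in the region interaction (-0.011) and Penk in the age interaction (-0.016) with library totals, Oprd1 in the age interaction with the replicate block (6.88e-06), and the Penk share between genotypes in P21 midbrain from counts not divided by length (0.193 points).
Leaving out 1 library at a time kept direction and call in 930 of 1000 member fold changes. Called members ranged from 9 to 10 between regions, where Oprk1 (-0.18 to -0.12) was called in 5 of 16 fits.
Signs turned only for values that were not called. For genotype (Nova1 hu/hu minus Nova1 wt/wt, log2) the ranges at E18.5 were Penk -0.095 to 0.0070, Pdyn -0.054 to 0.077, Oprd1 -0.036 to 0.070, Tacr1 -0.010 to 0.084 and Tacr3 -0.066 to 0.046. In P21 midbrain they were Penk -0.082 to 0.034, Pdyn -0.14 to 0.17 and Oprd1 -0.078 to 0.072. In P21 cortex they were Pdyn -0.091 to 0.011, Pnoc -0.034 to 0.059, Tac1 -0.048 to 0.036, Tacr1 -0.018 to 0.10 and Tacr3 -0.053 to 0.12. For the region interaction they were Pdyn -0.11 to 0.21, Pnoc -0.10 to 0.0020, Oprm1 -0.17 to 0.046, Oprl1 -0.028 to 0.049 and Tacr3 -0.040 to 0.17, and for the age interaction Penk -0.037 to 0.093, Pdyn -0.15 to 0.17, Oprd1 -0.093 to 0.057 and Tacr3 -0.0062 to 0.19. For shares between genotypes, in percentage points, they were Penk -1.44 to 1.51 (E18.5) and -1.56 to 1.85 (P21 midbrain), Oprl1 -1.13 to 0.434 (P21 cortex), and Tacr3 -1.83 to 0.893 (E18.5), -1.97 to 0.804 (P21 midbrain) and -2.51 to 2.25 (P21 cortex). Depth limits the low receptors most, with 31 counted reads of Oprd1 in the lowest library.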
